A study of Homo sapiens with 12 samples.

Results

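The insulin-like growth factor (IGF) binding proteins were described in HK-2 cells, an immortalized line derived from human proximal tubular epithelium, across a control group and 3 drug groups. The members were the genes named IGFBP1 to IGFBP7 in the count table, 7 of 58735 genes. The study asked which genes 3 nephrotoxic drugs change in common in these cells. The control group received water, and the others were exposed for 48 h to iohexol at 75 mg I/mL, an iodinated contrast medium, to cisplatin at 5 μM, a platinum drug that crosslinks DNA, or to vancomycin at 4 mM, a glycopeptide antibiotic. Poly(A)-selected RNA of 3 samples per group was sequenced, and all 12 samples came from the same line grown in DMEM/F12 medium with fetal bovine serum, so that each group was a culture model without the other cell types of the kidney. The labels number the 3 samples of a group but do not say whether they were separate cultures, so the p-values measure the spread between these samples, which may be technical.

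IGF binding proteins are secreted proteins that hold the growth factors IGF1 and IGF2 outside the cell, carry them in blood and release or withhold them from the IGF1 receptor. Proteases that cut a binding protein set its IGF free, and several binding proteins also act on cells without IGF. In the kidney, IGFBP7 is best known for its use in urine, measured together with the metalloproteinase inhibitor TIMP2, as a sign of tubular stress.

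Total counts per sample were between 14057282 and 18177109, and 3 counts, taken as the limit that a count of 0 allows, corresponded to 0.177 to 0.218 CPM (counts scaled to the size of the library) per sample. This limit and the intervals of counts cover counting error only. CPM used the total count multiplied by a TMM factor, which was 0.885 to 1.13 over the samples. Iohexol replicate 3 stood apart from the other libraries of its group: the counts of replicates 1 and 2 differed by 3.56 times the counting variance, and those of replicate 3 differed from them by 14.6 and 15.5 times. Values without that library are given beside the iohexol results of the members that it moved. Control replicate 1 stood apart to a lesser degree, at 7.3 and 9.75 times against 3.07 between the other control libraries. The vancomycin pairs differed by 5.78, 8.77 and 11.9 times. Control replicate 1 is shared by all comparisons with the control group and had the lowest control level of IGFBP3 to IGFBP7. The tubular origin of the line was checked with 14 proximal tubule marker genes, of which 7 had at least 3 counts in every sample. PAX8, GGT1, MME and CDH6 carried most of these reads, whereas the transporter gene SLC22A6 had 0 counts in all samples, and LRP2, SLC22A8 and HNF4A had at most 3 counts in any sample. The tubule markers of this list thus ranged from well expressed to nearly absent. The summed level of the 14 markers was 945 to 1282 CPM over the control, iohexol and vancomycin samples and 386 to 409.6 CPM over the cisplatin samples. Single markers moved within this sum. With iohexol PAX8 averaged 617 CPM against 372 in the control group, and CDH6 averaged 170.4 against 520.0. As in all bulk samples, fewer cells of a kind and less RNA per cell cannot be told apart in the values below.

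All 7 members are protein-coding genes, given here with the coordinates of the count table on GRCh38. IGFBP1 (ENSG00000146678, chr7:45888357-45893668, plus strand) and IGFBP3 (ENSG00000146674, chr7:45912245-45921874, minus strand) face each other with 18576 bases between them. IGFBP2 (ENSG00000115457, chr2:216632828-216664436, plus strand) and IGFBP5 (ENSG00000115461, chr2:216672105-216695525, minus strand) form a second such pair, with 7668 bases between them. The other members stand alone, IGFBP4 (ENSG00000141753) at chr17:40443461-40457731 on the plus strand, IGFBP6 (ENSG00000167779) at chr12:53097436-53102345 on the plus strand and IGFBP7 (ENSG00000163453) at chr4:57030773-57110385 on the minus strand. These pairs did not share a level. IGFBP3 was among the most abundant members and its neighbour IGFBP1 was near 0, and the same held on a lower scale for IGFBP5 and IGFBP2.

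The 250 bases before the RefSeq start of IGFBP3, IGFBP5 and IGFBP4 are shown because the first 2 were lower and the third higher with cisplatin. IGFBP5 was lower on few counts and entered that test through the control libraries. The sequences are those of RefSeq on GRCh38.p14, 5′ to 3′ on the strand of the gene, from chr7:45921273-45921522 (minus strand), chr2:216695550-216695799 (minus strand) and chr17:40443200-40443449 (plus strand). These RefSeq starts differ from those of the count table, whose bounds take in every transcript of a gene. They lay 24 bases before the table's start for IGFBP5 and 11 bases before it for IGFBP4, so both stretches lie outside the bounds given above. The RefSeq start of IGFBP3 lay 602 bases inside those bounds, and so did the whole stretch printed for it. For IGFBP6 it lay 231 bases inside, and 231 of the 250 bases before it are annotated as untranslated region of longer transcripts, so they are not printed. Capitals mark matches to the motifs described after them.
IGFBP3: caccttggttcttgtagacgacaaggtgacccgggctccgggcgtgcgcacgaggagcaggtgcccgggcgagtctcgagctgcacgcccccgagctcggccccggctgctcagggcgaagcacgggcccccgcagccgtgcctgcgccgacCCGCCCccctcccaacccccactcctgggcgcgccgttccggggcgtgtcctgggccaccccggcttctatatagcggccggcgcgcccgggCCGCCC
IGFBP5: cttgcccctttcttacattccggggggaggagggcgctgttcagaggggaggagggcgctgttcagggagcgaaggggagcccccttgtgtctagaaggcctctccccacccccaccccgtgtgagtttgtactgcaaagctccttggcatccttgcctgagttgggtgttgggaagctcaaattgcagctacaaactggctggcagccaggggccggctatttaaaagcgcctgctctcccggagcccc
IGFBP4: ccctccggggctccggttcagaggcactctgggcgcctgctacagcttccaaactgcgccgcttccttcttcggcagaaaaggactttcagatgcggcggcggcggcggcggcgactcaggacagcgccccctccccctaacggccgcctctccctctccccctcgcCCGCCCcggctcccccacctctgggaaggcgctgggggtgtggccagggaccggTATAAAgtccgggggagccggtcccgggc

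The motifs searched on both strands were the TATA box (TATAAA), the GC box (GGGCGG), the CCAAT box (CCAAT), the AP-1 site (TGANTCA), the antioxidant response element (TGACNNNGC) and the forkhead site (GTAAACA). The searched window ran from 250 bases before to 50 bases after the RefSeq start, and 5 of the 7 members had one, IGFBP1 and IGFBP7 being without. Positions were counted from the start, whose first base is 1 and whose preceding base is -1. IGFBP3 had GC boxes at -98 and -6, IGFBP4 had GC boxes at -83 and 25 and a TATA box at -29, and IGFBP6 had a GC box at -17 and a forkhead site at -186. The window of IGFBP5 held none of these letters, and the 3 windows of IGFBP2 held GC boxes or a CCAAT box. Of all 35116 windows, 45.0% held a GC box, 11.5% a TATA box, 34.6% a CCAAT box, 7.71% an AP-1 site, 13.3% an antioxidant response element and 3.42% a forkhead site. The windows of IGFBP3 and IGFBP4 were 74.7% and 74.0% G or C, that of IGFBP6 was 61.7%, and the median over all windows was 58.7%. A match is a description of the letters and not evidence of a bound factor.

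In untreated HK-2 cells, IGFBP7 was the most abundant member and IGFBP3 the next. Levels of different genes were compared as CPM per kilobase of gene length. In the control group the level per length was 165 ± 11.9 (SD, n = 3) for IGFBP7, 40.8 ± 0.739 for IGFBP3, 8.75 ± 1.64 for IGFBP6, 6.03 ± 0.695 for IGFBP4 and 0.230 ± 0.103 for IGFBP5. IGFBP6 and IGFBP4 were the nearest neighbours in this order, with 6.96 to 10.2 and 5.38 to 6.76 CPM per kilobase over the 3 control samples, and the other neighbours were much farther apart than their SDs. IGFBP1 and IGFBP2 were at or near the counting limit in every group.

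**Figure D1:**
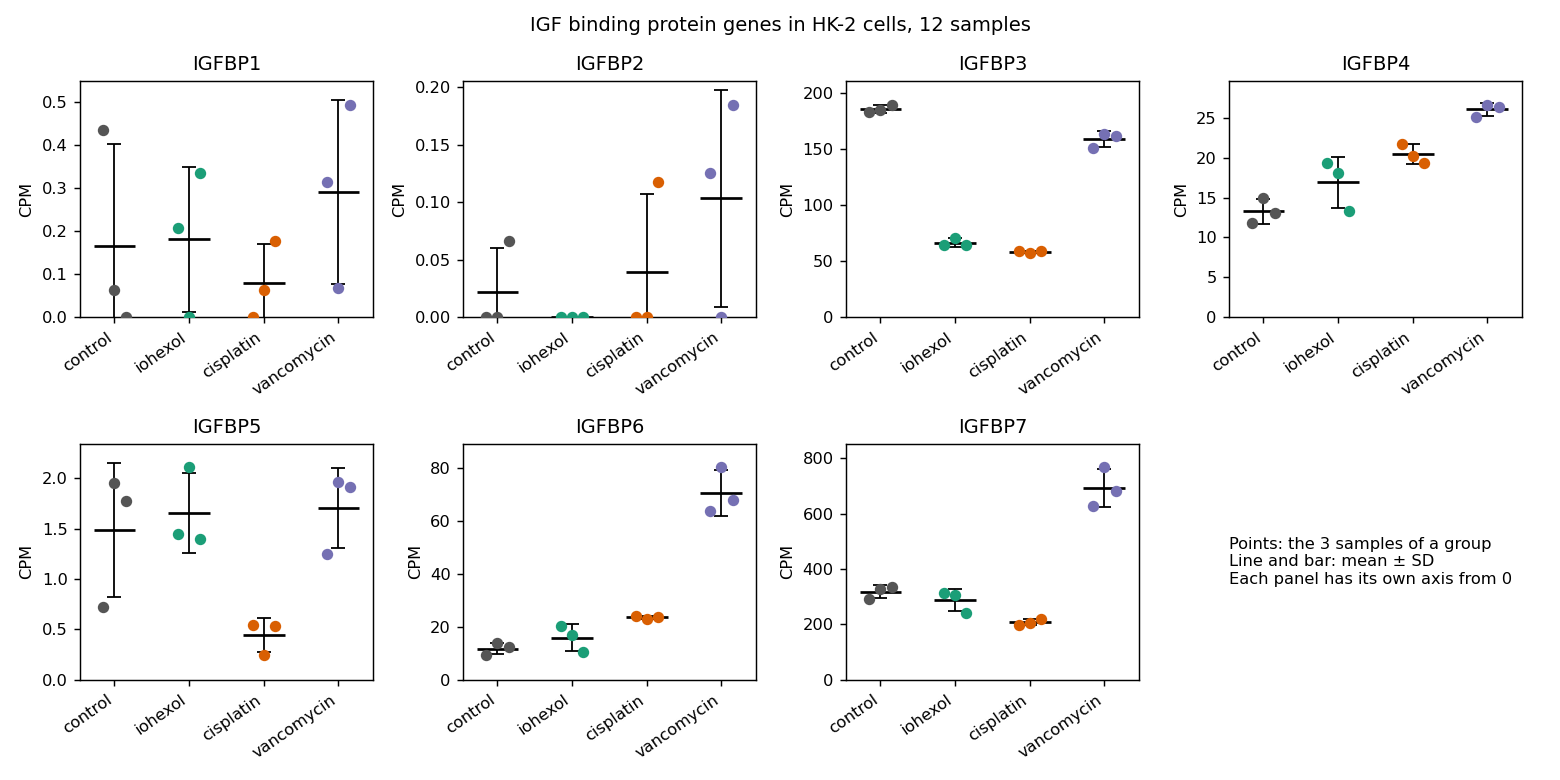
Level of each IGF binding protein gene in CPM (vertical axes, each from 0) in the 3 samples of the control, iohexol, cisplatin and vancomycin groups; points are samples, the line and bar are the mean ± SD. IGFBP3 lies at 56.8 to 71.0 CPM in the iohexol and cisplatin samples against 183 to 190.0 in the controls, and IGFBP6 and IGFBP7 stand highest in the vancomycin samples.

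The summed level of all 7 members per length was 221 ± 14.4 CPM per kilobase in the control group, 183 ± 25.8 with iohexol, 147 ± 5.55 with cisplatin and 459 ± 44.3 with vancomycin (SD, n = 3 each). The vancomycin samples, at 418 to 506, all lay above the other samples, and the cisplatin samples, at 143 to 153, lay below the iohexol samples. Iohexol replicate 3 was at 154 and its companions at 201 and 195. IGFBP7 made up most of the sum in every group, with 74.7% ± 0.582 in the control group, 81.2% ± 0.392 with iohexol, 73.0% ± 1.29 with cisplatin and 78.3% ± 0.368 with vancomycin. The share of IGFBP3 was 18.5% ± 1.01 in the control group and was lower with each drug, at 8.05% ± 1.08 with iohexol, 8.67% ± 0.266 with cisplatin and 7.62% ± 0.456 with vancomycin. The share of IGFBP6 was 3.95% ± 0.529 in the control group, 6.35% ± 1.28 with iohexol, 11.9% ± 0.498 with cisplatin and 11.4% ± 0.343 with vancomycin. The 3 drugs thus left mixtures with a smaller part of IGFBP3 and a larger part of IGFBP6. Shares of a sum are not independent of each other, and they were not tested.

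**Figure D2:**
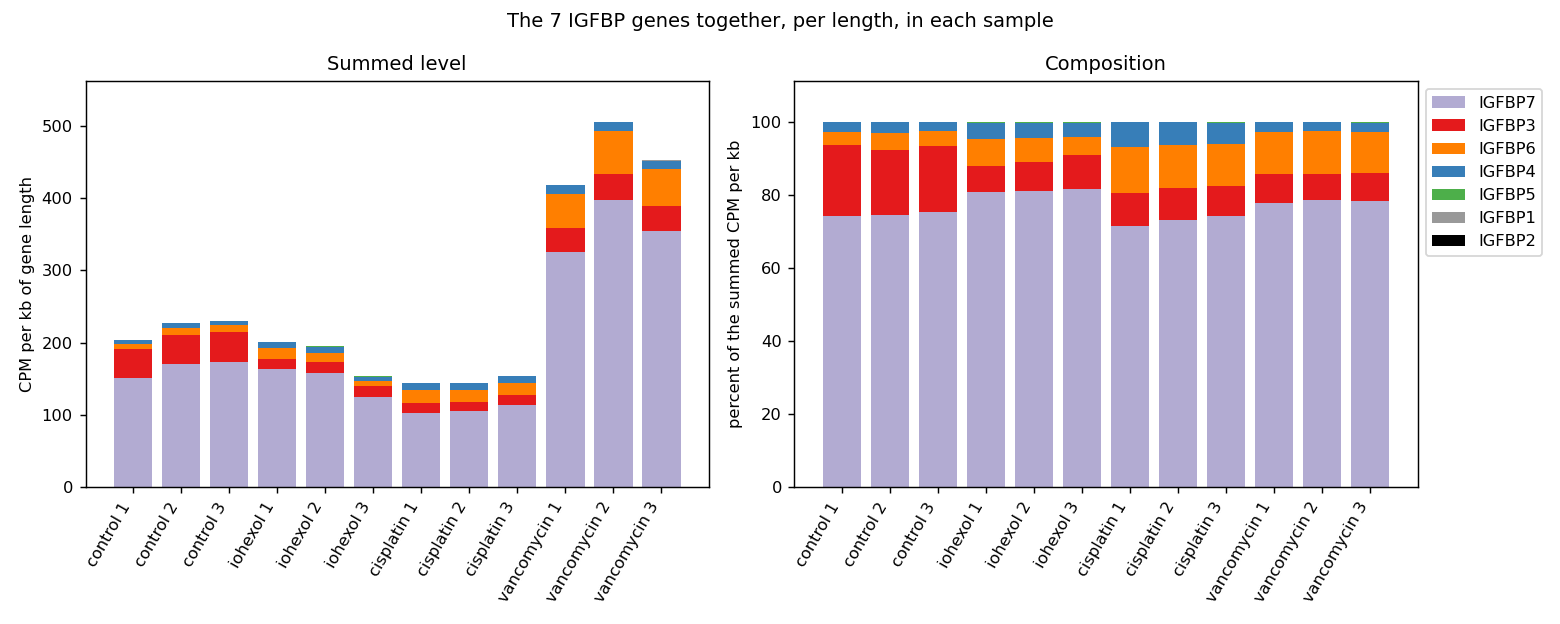
Stacked levels of the 7 IGF binding protein genes in each of the 12 samples, as CPM per kilobase of gene length (left) and as percent of their sum (right). The vancomycin samples reach 418 to 506 CPM per kilobase against 204 to 230.3 in the controls, and IGFBP7 is the largest part of every bar.

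Against the control group, 5 of the 7 members passed the filter on low counts and were tested with edgeR's quasi-likelihood test with Benjamini-Hochberg adjustment over all genes tested, at an adjusted p under 0.05. With iohexol 1 of the 5 members changed, which was IGFBP3, against 21.0% of the 15657 genes tested (11.2% higher and 9.77% lower). With cisplatin the background was 59.8% of 15876 genes (29.2% higher and 30.6% lower). The 5 tested members changed, 2 higher and 3 lower, but IGFBP5 had passed the filter through the control libraries alone, and without it there were 2 higher and 2 lower of 4. With vancomycin 4 of the 5 changed, 3 higher and 1 lower, against 57.9% of 15819 genes (29.0% higher and 28.8% lower). A log2 fold change above 1 or below -1 in addition was seen for 1 member with iohexol, 2 with cisplatin (1 without IGFBP5) and 2 with vancomycin, against 5.28%, 16.3% and 18.5% of all genes. The median log2 fold change over the tested members was 0.17 with iohexol, -0.62 with cisplatin and 0.93 with vancomycin, and the medians over all genes tested were 0.01, 0.01 and -0.01. Without IGFBP5 the members' medians were 0.12, 0.00 and 1.01. These comparisons share the 3 control samples. The control and drug samples did not overlap for 1 member with iohexol, 5 with cisplatin (4 without IGFBP5) and 4 with vancomycin, where 37.9%, 65.1% and 63.2% of all genes tested did not overlap.

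IGFBP3 fell with all 3 drugs, steeply with iohexol and cisplatin and slightly with vancomycin. It encodes the main carrier of IGFs in serum, which forms a complex with IGF and the acid-labile subunit. Its level in the control samples was 183, 185 and 190.0 CPM. It was 64.5, 71.0 and 64.3 CPM with iohexol, 58.7, 56.8 and 59.1 with cisplatin, and 151, 164 and 162 with vancomycin. Every drug sample lay below every control sample, and the 3 vancomycin samples lay far above those of the other drugs. The log2 fold change was -1.47 with iohexol (SE 0.09, edgeR adjusted p = 5.54e-07), a level 2.76-fold lower. It was -1.68 with cisplatin (SE 0.06, edgeR adjusted p = 4.6e-13), or 3.20-fold lower, and -0.27 with vancomycin (SE 0.08, edgeR adjusted p = 0.00838). The change with vancomycin was called in all 14 alternative analyses, with adjusted p values of 0.00109 to 0.0427.

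IGFBP5, the other member that can form such a ternary complex, was a low gene. Its counts in the control samples were 10, 31 and 27, and they were 21, 33 and 21 with iohexol, 20, 29 and 31 with vancomycin and 9, 4 and 9 with cisplatin. The cisplatin libraries were the lowest of all 12, and the lowest control library was close to them, at 0.726 CPM against 0.545 for the highest cisplatin library. IGFBP5 fell with cisplatin by 1.74 on the log2 scale (SE 0.45, edgeR adjusted p = 0.00318), from 1.48 ± 0.661 to 0.441 ± 0.169 CPM (SD, n = 3). It entered that test through the control libraries, as no cisplatin library held 10 counts. With iohexol and vancomycin the log2 fold changes were 0.17 (95% confidence interval -0.65 to 0.98) and 0.14 (-0.62 to 0.91), which did not pass the test. Without iohexol replicate 3 the first was 0.28 (edgeR adjusted p = 0.656).

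IGFBP1 and IGFBP2, both carriers of IGFs in body fluids, were barely detected. IGFBP1 is made mainly by the liver and decidua and responds to insulin, starvation and hypoxia. Its counts were 6, 1 and 0 in the control samples, 3, 0 and 5 with iohexol, 0, 1 and 3 with cisplatin and 5, 1 and 8 with vancomycin. IGFBP2 had 0, 0 and 1 counts in the control samples, 0 in all iohexol samples, 0, 0 and 2 with cisplatin and 2, 0 and 3 with vancomycin. The groups overlapped for both genes. No iohexol library held an IGFBP2 count, and a count of 0 there allows up to 0.192 to 0.207 CPM per library. Neither gene passed the filter. In a fit without it, adjusted p values for these genes were 0.211 to 0.972 over the 6 comparisons of groups, so that a difference was not detectable at this depth.

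IGFBP4, which holds IGFs back from the receptor until a protease cuts it, rose with cisplatin and vancomycin. Its level was 11.8, 14.9 and 13.1 CPM in the control samples, 19.4, 18.1 and 13.3 with iohexol, 21.8, 20.2 and 19.4 with cisplatin and 25.2, 26.7 and 26.4 with vancomycin. The cisplatin and vancomycin samples lay above all controls, and iohexol replicate 3 lay among the controls while its companions lay above them. The log2 fold change was 0.62 with cisplatin (SE 0.11, edgeR adjusted p = 0.000153) and 0.93 with vancomycin (SE 0.12, edgeR adjusted p = 8.01e-07). With iohexol it was 0.37 (SE 0.16, edgeR adjusted p = 0.130), and without iohexol replicate 3 it was 0.52 (edgeR adjusted p = 0.00719).

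IGFBP6, which binds IGF2 with preference over IGF1, rose most of the members. Its level was 9.36, 13.7 and 12.3 CPM in the control samples, 20.4, 17.1 and 10.3 with iohexol, 22.9 to 24.1 with cisplatin and 63.9, 80.4 and 67.9 with vancomycin. The vancomycin samples stood far above all others, the cisplatin samples above all controls and iohexol samples, and iohexol replicate 3 again lay among the controls. With vancomycin the level was 5.80-fold higher, a log2 fold change of 2.54 (SE 0.13, edgeR adjusted p = 8.09e-14). With cisplatin it was 1.99-fold higher (SE of the log2 value 0.12, edgeR adjusted p = 2.39e-06), just short of a log2 fold change of 1. With iohexol the log2 fold change was 0.45 (SE 0.23, edgeR adjusted p = 0.183), and without iohexol replicate 3 it was 0.69 (edgeR adjusted p = 0.00192). Leaving out that library therefore raised the number of members called with iohexol from 1 to 3.

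IGFBP7, a matrix-associated member that binds IGFs weakly, fell with cisplatin and rose with vancomycin. Its level was 292, 328 and 334 CPM in the control samples, 314, 305 and 242 with iohexol, 198, 204 and 219 with cisplatin and 629, 768 and 684 with vancomycin. Each cisplatin sample lay below and each vancomycin sample above all controls, and 1 of the 3 iohexol samples, replicate 3, lay below them. The log2 fold change was -0.62 with cisplatin (SE 0.06, edgeR adjusted p = 2.46e-07), or 1.54-fold lower, and 1.08 with vancomycin (SE 0.09, edgeR adjusted p = 3.82e-10), or 2.12-fold higher. With iohexol it was -0.13 (95% confidence interval -0.36 to 0.11, edgeR adjusted p = 0.443), and without iohexol replicate 3 it was -0.02 (edgeR adjusted p = 0.901). IGFBP7 shares 270 exon bases with POLR2B on the opposite strand, a subunit gene of RNA polymerase II, and 8.59% of its 31-base sequences occur there. The counting by strand is not given in the sources used here, so reads in that stretch cannot be assigned with certainty. POLR2B had 198 ± 12.1 CPM in the control group and 131 ± 3.44 with vancomycin, a log2 fold change of -0.63 (SE 0.09, edgeR adjusted p = 1.25e-06) against the rise of IGFBP7. With cisplatin its log2 fold change was 0.07 (edgeR adjusted p = 0.334). The antisense gene IGFBP7-AS1, which shares 94 exon bases, had at most 14 counts.

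**Figure D3:**
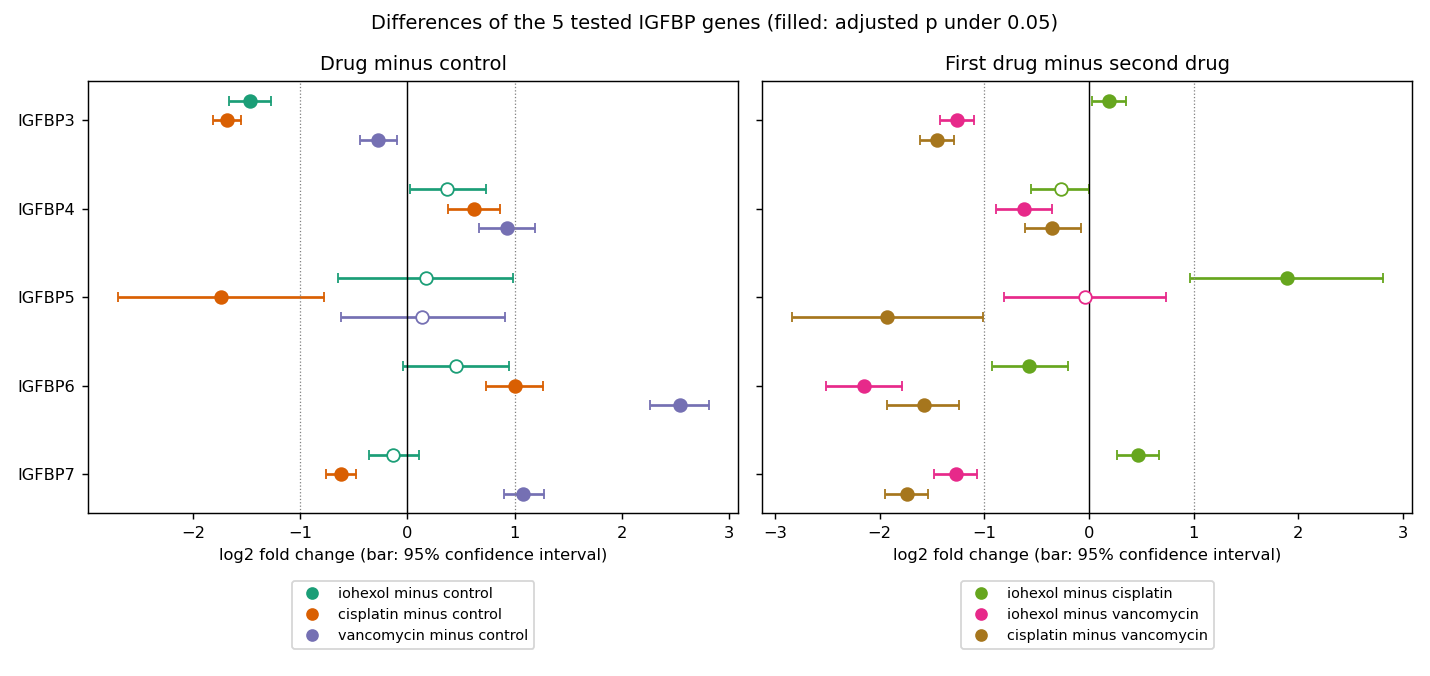
Log2 fold changes of the 5 tested members (rows) for each drug against the control group (left) and between the drugs (right), with 95% confidence intervals; filled points have an edgeR adjusted p under 0.05 and dotted lines mark -1 and 1. IGFBP3 is lower with each drug, IGFBP6 reaches 2.54 with vancomycin, and IGFBP7 lies at -0.62 with cisplatin and 1.08 with vancomycin.

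The drugs were also compared with each other, in contrasts of a single edgeR fit of all 12 samples. Iohexol and cisplatin differed at 4 of the 5 tested members, against 54.0% of 17073 genes (27.9% higher and 26.0% lower with iohexol). IGFBP5 was higher with iohexol by a log2 difference of 1.89 (SE 0.44, edgeR adjusted p = 0.00120) and IGFBP7 by 0.47 (SE 0.10, edgeR adjusted p = 0.000401), whereas IGFBP6 was lower with iohexol, at -0.57 (SE 0.18, edgeR adjusted p = 0.00974). Without iohexol replicate 3 the difference of IGFBP6 was smaller, at -0.33 (edgeR adjusted p = 0.0392), and over all leave-one-out fits it was -0.78 to -0.33. IGFBP3 was higher with iohexol by 0.19 (SE 0.08, edgeR adjusted p = 0.0379), a call kept in 10 of 20 alternative analyses, over which the adjusted p was 0.0218 to 0.479. The 1 member past a log2 difference of 1 was IGFBP5, where 17.5% of all genes were. IGFBP5 entered the tests between drugs through the groups other than cisplatin, and of the other 4 members 2 were higher and 1 was lower with iohexol. IGFBP4 did not pass the test (log2 difference -0.27, SE 0.13, edgeR adjusted p = 0.0840). It was called in 2 of 20 alternative analyses, with library size only (-0.40, edgeR adjusted p = 0.0139) and without iohexol replicate 1 (-0.38, edgeR adjusted p = 0.0317), which raised the members lower with iohexol from 1 to 2. Without iohexol replicate 3 it was -0.12 (edgeR adjusted p = 0.406).

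Iohexol and vancomycin differed at 4 of the 5 tested members, each lower with iohexol, against 56.6% of genes (27.6% higher and 29.0% lower with iohexol). The log2 difference was -2.15 for IGFBP6 (SE 0.17), -1.27 for IGFBP7 (SE 0.10), -1.26 for IGFBP3 (SE 0.08) and -0.62 for IGFBP4 (SE 0.13), with edgeR adjusted p values of 2.01e-09, 1.14e-09, 2.87e-11 and 0.000395. The first 3 of these exceeded 1, as did 20.1% of all genes. For IGFBP5 it was -0.04, with a 95% confidence interval of -0.81 to 0.74. Cisplatin and vancomycin differed at the 5 tested members, each lower with cisplatin, against 64.7% of genes (30.0% higher and 34.7% lower with cisplatin). Without IGFBP5, which held under 10 counts in each cisplatin library, it was 4 of 4. The log2 difference was -1.93 for IGFBP5 (SE 0.44), -1.74 for IGFBP7 (SE 0.10), -1.58 for IGFBP6 (SE 0.17) and -1.45 for IGFBP3 (SE 0.08), with edgeR adjusted p values of 0.000708, 7.8e-12, 6.11e-08 and 2.16e-12. These 4 exceeded 1 (3 without IGFBP5), as did 28.5% of all genes. For IGFBP4 it was -0.35 (SE 0.13, edgeR adjusted p = 0.0217), and -0.01 (edgeR adjusted p = 0.930) when CPM used the library size without TMM factors. Without cisplatin replicate 2 or 3 this call was also lost (edgeR adjusted p = 0.0594 and 0.0784). The samples of the 2 drugs did not overlap for 5 members between iohexol and cisplatin, 4 between iohexol and vancomycin and 5 between cisplatin and vancomycin, against 60.9%, 59.4% and 71.2% of all genes.

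These contrasts give the order of the groups for each member. IGFBP7 descended from vancomycin through the control group to cisplatin, and the neighbouring control and iohexol groups did not differ beyond their spread. IGFBP3 descended from the control group through vancomycin to iohexol and cisplatin, the last pair differing by the small amount given above. IGFBP6 and IGFBP4 rose in the order control, iohexol, cisplatin and vancomycin, where iohexol against control did not pass the test for either gene. Iohexol against cisplatin did not pass it for IGFBP4, although the samples of these groups did not overlap. For IGFBP5 no test among the control, iohexol and vancomycin groups was passed, and the cisplatin group was below them.

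Over the 12 samples, log2 CPM of IGFBP4 and IGFBP6 had a Pearson r of 0.95, that of IGFBP6 and IGFBP7 0.75, and that of IGFBP3 and IGFBP7 0.68. IGFBP3 and IGFBP4 had an r of -0.11. As the samples fall into 4 groups, these values describe the group pattern and carry no test. Among 17072 other genes, those with the pattern most like IGFBP3 were CHRDL1 (r = 0.972), GALNT2 (0.971) and TXNIP (0.971). CHRDL1, a secreted antagonist of bone morphogenetic proteins, averaged 508, 235, 218 and 381 CPM in the control, iohexol, cisplatin and vancomycin groups. The genes most like IGFBP4 were ATP6V1F (0.985), a subunit of the vacuolar proton pump, APOL2 (0.979) and PHF23 (0.974). Those most like IGFBP5 were LRSAM1 (0.96), SLC37A4 (0.948), the glucose 6-phosphate transporter of the endoplasmic reticulum, and FAM149A (0.935). Those most like IGFBP6 were LY6E (0.996), GMPPA (0.994) and NECAB3 (0.994). Those most like IGFBP7 were the tetraspanin gene CD151 (0.994), the transketolase gene TKT (0.994) and CD276 (0.992). TKT averaged 541, 453, 281 and 1641 CPM in the same order of groups, the order seen for IGFBP7.

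The ligands that these proteins bind were nearly absent from the RNA, whereas their receptors were well expressed. IGF1 had 0 to 5 counts per sample, IGF2 0 to 3 and the insulin gene INS 0 in all 12. Of the 7 ligand and receptor genes, 3 were tested, with medians of 0.15, -0.88 and 0.41 with iohexol, cisplatin and vancomycin. IGF1R, the signalling receptor of both IGFs, averaged 138 ± 4.79 CPM in the control group and fell with cisplatin by 1.10 on the log2 scale (SE 0.07, edgeR adjusted p = 2.15e-10) and with vancomycin by 0.39 (SE 0.10, edgeR adjusted p = 0.00140). With iohexol its log2 fold change was 0.15 (edgeR adjusted p = 0.239). IGF2R, which takes up IGF2 for degradation, rose with iohexol (0.35) and vancomycin (0.41) and fell with cisplatin (-0.60), with edgeR adjusted p values of 0.0118, 0.000927 and 4.88e-08. INSR, the insulin receptor gene, changed by -0.42, -0.88 and 0.73 in the order iohexol, cisplatin and vancomycin, each past the test. The change of INSR with iohexol was not called without iohexol replicate 3 (edgeR adjusted p = 0.0540) or with library size only (0.0729).

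Genes for partners and proteases of the binding proteins moved in different directions with the drugs. With vancomycin 8 of 9 tested rose, against 29.0% of all genes tested, with a median log2 fold change of 0.95. Among these 8 was PAPPA2 (0.598 CPM in the control group, 2.29 with vancomycin), which passed the filter through the vancomycin libraries. With cisplatin 5 of 8 fell, against 30.6% of all genes, and none rose (median -0.96). With library size only STC2 (0.24) and TMEM219 (0.23) were also called higher with cisplatin. With iohexol 2 of 9 rose and 3 fell, against 11.2% and 9.77% of all genes (median -0.03, and 0.04 with library size only). PAPPA2 was again among those that rose, and here it passed the filter through the iohexol libraries (1.68 CPM). PAPPA, the protease that cuts IGFBP4 and IGFBP5, fell with cisplatin from 111 ± 4.97 to 47.3 ± 2.03 CPM (log2 fold change -1.22, SE 0.07, edgeR adjusted p = 1.17e-10) and with iohexol by 0.32 on the log2 scale (edgeR adjusted p = 0.0472, and 0.115 with library size only), and it was at 123 ± 21.4 CPM with vancomycin (edgeR adjusted p = 0.382). Its inhibitor STC2 rose with vancomycin (0.67, edgeR adjusted p = 3.66e-06), and the related inhibitor gene STC1 had at most 2 counts. With iohexol STC2 changed by 0.35 (edgeR adjusted p = 0.103), and without iohexol replicate 3 by 0.5 (edgeR adjusted p = 0.000589). Leaving out that library thus gave 3 genes of this list higher and 3 lower with iohexol. HTRA1, a secreted serine protease that itself carries an IGFBP domain, averaged 42.8 ± 3.66 CPM in the control group, 96.4 ± 4.65 with iohexol, 6.10 ± 1.06 with cisplatin and 102 ± 6.60 with vancomycin. All 3 of its changes passed the test (log2 fold changes of 1.19, -2.81 and 1.22).

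MMP7, a metalloproteinase able to cut IGFBPs, rose with vancomycin from 44.6 ± 3.89 to 327 ± 33.4 CPM (log2 fold change 2.83, SE 0.10, edgeR adjusted p = 9.27e-17) and fell with iohexol (-1.88) and cisplatin (-0.69). ADAM12, a protease of IGFBP3 and IGFBP5, fell with iohexol (-1.65) and cisplatin (-2.64). The receptor gene LRP1, which has been described to bind IGFBP3, fell with cisplatin (-1.52, edgeR adjusted p = 2.46e-11) and rose with vancomycin (0.92, edgeR adjusted p = 2.66e-07). TMEM219, a receptor gene for IGFBP3, rose with vancomycin (0.95, edgeR adjusted p = 6.94e-08). IGFALS, which encodes the acid-labile subunit, had at most 11 counts.

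**Figure D4:**
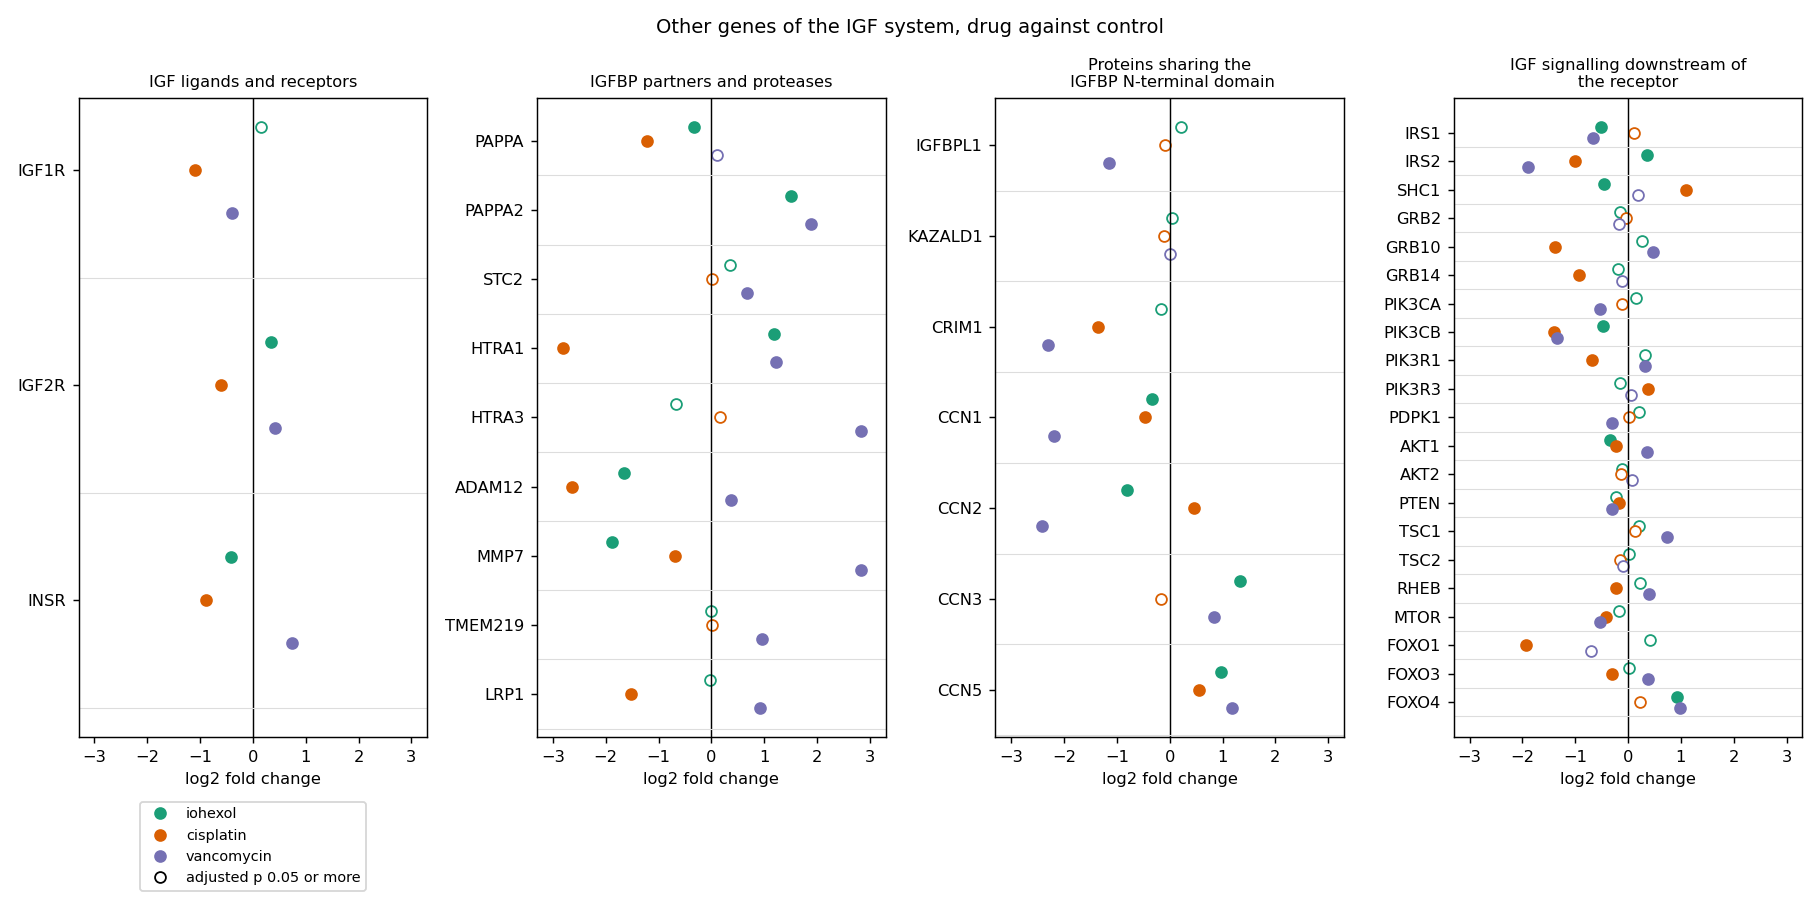
Log2 fold changes against the control group (horizontal axes) for tested genes of 4 lists around the IGF binding proteins, with iohexol, cisplatin and vancomycin in separate colours; open points have an edgeR adjusted p of 0.05 or more. Of the partners and proteases, 8 of 9 are higher with vancomycin, and HTRA1 lies at -2.81 with cisplatin against 1.19 and 1.22 with the other drugs. PAPPA2, among those 8, passed the filter through the vancomycin libraries.

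Other proteins with the IGF-binding N-terminal domain did not share one direction. Over all genes tested, 11.2% rose and 9.77% fell with iohexol, 29.2% and 30.6% with cisplatin, and 29.0% and 28.8% with vancomycin, and the counts of the lists that follow are given against these shares. Of 7 tested, 2 rose and 2 fell with iohexol, 2 rose and 2 fell with cisplatin, and 2 rose and 4 fell with vancomycin, with medians of 0.05, -0.11 (0.11 with library size only) and -1.15. With vancomycin, CCN2 fell from 349 to 67.3 CPM (log2 fold change -2.42, edgeR adjusted p = 1.69e-16), CCN1 changed by -2.19 and CRIM1 by -2.30 on the log2 scale, and CCN5 rose by 1.18. CCN3 rose with iohexol by 1.33. CCN1 and CCN2 are matricellular proteins induced by growth factors and mechanical load. Of 22 tested genes that act downstream of the IGF1 receptor, 2 rose and 5 fell with iohexol, 2 rose and 12 fell with cisplatin, and 7 rose and 8 fell with vancomycin, with medians of -0.05, -0.20 and -0.11. With library size only, 7 rose and 8 fell with cisplatin and the median was 0.02, so that the direction of this group with cisplatin depended on the scaling. With iohexol that scaling gave 5 higher and 4 lower and a median of 0.02. The adaptor gene IRS2 fell with vancomycin by 1.90 on the log2 scale, and the kinase gene PIK3CB fell with cisplatin by 1.40 and with vancomycin by 1.34. With cisplatin the inhibitory adaptor gene GRB10 fell by 1.38 and SHC1 rose by 1.10. FOXO1, among the 12 that fell with cisplatin, passed the filter through the control libraries (1.18 CPM in the control group, 0.304 with cisplatin). Among the 3 genes for IGF2 mRNA-binding proteins, 1 fell with iohexol, 3 with cisplatin and 1 with vancomycin, and with library size only 1, 2 and 2.

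TIMP2, whose protein is measured with IGFBP7 in urine, changed with all 3 drugs. TIMP2 averaged 359 ± 0.709 CPM in the control group, 509 ± 0.772 with iohexol, 186 ± 3.70 with cisplatin and 440.3 ± 6.35 with vancomycin. It rose with iohexol (log2 fold change 0.52, SE 0.07, edgeR adjusted p = 0.000433), where IGFBP7 did not pass the test (-0.13), fell with cisplatin as IGFBP7 did (-0.95, SE 0.06, edgeR adjusted p = 1.32e-10) and rose with vancomycin (0.25, SE 0.08, edgeR adjusted p = 0.0103, and 0.0615 with library size only). Of 6 urinary injury marker genes including TIMP2, 4 rose with iohexol, 1 rose and 4 fell with cisplatin, and 4 rose and 1 fell with vancomycin. CCL2, among the 4 that fell with cisplatin, passed the filter through the control libraries (1.23 CPM in the control group, 0.440 with cisplatin). LCN2, which encodes the marker NGAL, rose with vancomycin by 3.28 and with iohexol by 1.95. SPP1, the osteopontin gene, fell with cisplatin by 1.63 and rose with vancomycin by 1.59. HAVCR1, which encodes the marker KIM-1, fell with cisplatin (-1.43) and vancomycin (-1.2).

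Genes of pathways in which IGFBP1 and IGFBP3 are known were also counted. Of 16 tested genes of the FOXO, ATF4 and hypoxia responses, which can induce IGFBP1, 6 rose and 2 fell with iohexol, 5 rose and 9 fell with cisplatin, and 9 rose and 1 fell with vancomycin, with medians of 0.28, -0.35 and 0.53. ASNS, among those 6, passed the filter through the iohexol libraries (0.635 CPM in the control group, 1.68 with iohexol). Without iohexol replicate 3, 8 rose and 2 fell with iohexol. With library size only, 6 rose and 7 fell with cisplatin. The hypoxia genes of this list did not move together with cisplatin. ADM rose (1.29), whereas DDIT4 (-1.99), NDRG1 (-1.64), BNIP3 (-1.23), HIF1A (-0.84) and VEGFA (-0.46) fell, and CA9 fell from 1.71 to 0.0798 CPM. CA9, among the 9 that fell with cisplatin, passed the filter through the control libraries, so its place there follows in part from the filter. With vancomycin ADM (2.45), CA9 (2.48), VEGFA (1.29), NDRG1 (1.14) and BNIP3 (0.47) rose, and DDIT4 (-0.02) and HIF1A (0.18) did not pass the test. The 1 gene of the list that fell with vancomycin was CITED2 (-1.06, edgeR adjusted p = 1.27e-10). IGFBP1 counts did not exceed 8 in any sample. IGFBP3 is a known target of p53. Of the other p53 target genes, 2 of 19 rose and 1 fell with iohexol, 12 of 19 rose and 4 fell with cisplatin, and 9 of 20 rose and 4 fell with vancomycin, with medians of 0.11, 0.36 and 0.25. SPATA18, among those 9, was tested only with vancomycin, through whose libraries it passed the filter (0.338 CPM in the control group, 2.17 with vancomycin). Of all genes tested, 11.2%, 29.2% and 29.0% rose and 9.77%, 30.6% and 28.8% fell with these drugs. Without iohexol replicate 3 the first count was 5 of 19, and with library size only 15 rose and 1 fell with cisplatin. CDKN1A, the cell cycle inhibitor gene p21, rose by 0.66, 1.55 and 2.62 with iohexol, cisplatin and vancomycin. GDF15 rose by 2.15, 0.81 and 1.69 in the same order. MDM2 did not pass the test with any drug (0.11, 0.08 and -0.15, edgeR adjusted p = 0.485, 0.351 and 0.211). With library size only MDM2 was called higher with cisplatin (0.3, edgeR adjusted p = 0.00114). The 4 that fell with vancomycin were POLH (-0.74), FAS (-0.58), TP53INP1 (-0.45) and CCNG1 (-0.24, edgeR adjusted p = 0.0470). IGFBP3 fell with each of the 3 drugs, and a link between IGFBP3 and p53 was not tested.

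Markers of other cell types were read beside these values. Of 8 fibroblast and mesangial marker genes, 4 had at least 3 counts in every sample. Their summed level was 244 to 279 CPM with vancomycin, against 115 to 129 in the control samples, 107 to 116 with iohexol and 105 to 109 with cisplatin, so that it moved with IGFBP6 and IGFBP7 under vancomycin. LUM (182 against 79.8 CPM) and DCN (30.5 against 12.3) carried this rise. The 5 tested genes of this list were higher with vancomycin, against 29.0% of all genes, with a median log2 fold change of 1.14. The other 3 were COL1A1 (0.41, edgeR adjusted p = 0.00492), PDGFRB (1.12, edgeR adjusted p = 0.0241) and ACTA2 (2.36, edgeR adjusted p = 0.000242), of which PDGFRB and ACTA2 had at most 30 and 37 counts. These low genes averaged 0.607 and 0.309 CPM in the control group and passed the filter through the vancomycin libraries. Their place among the higher genes therefore follows in part from the filter, whereas LUM, DCN and COL1A1 did not depend on it. With cisplatin 2 of 4 rose and 2 fell, and with iohexol 1 of 3 fell. PDGFRB, among those that rose with cisplatin, passed that filter through the cisplatin libraries. The remaining fibroblast genes PDGFRA, COL1A2 and COL3A1 had at most 5 counts in any sample. The part of such cells in the results was not tested. Of 6 endothelial genes, which mark a cell type rich in IGFBP7, none had 3 counts in every sample, and their sum was 0 to 4.28 CPM over all samples. PECAM1, the 1 tested gene of these, had at most 59 counts and carried most of the sum in the control group. It was higher with iohexol (1.54, edgeR adjusted p = 0.00136) and lower with vancomycin (0.0831 CPM against 1.33 in the control group, edgeR adjusted p = 1.93e-05). PECAM1 entered the vancomycin test through the control libraries, so that call follows in part from the filter. CDH5, KDR, VWF, TEK and EMCN had at most 8 counts. The 8 epithelial genes summed to 1241 to 2477 CPM, with 7 of them above the limit in every sample, the 6 leukocyte genes to 1.11 to 5.76 CPM with 1 above it, and the 5 hepatocyte genes to 30.0 to 192 CPM. Of the latter SERPINA1 and FGB were above the limit, and ALB, APOA1 and TTR were not.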

How the data were processed

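RNA of 12 HK-2 samples was measured in 4 groups of 3, grouped by the treatment in the labels. The authors deposited whole-number counts of reads per gene for 58735 genes, not normalized. The submitters' processing notes name CASAVA 1.8, fastp, HISAT2 2.0.5, featureCounts 1.5.0-p3 and DESeq2 1.20.0, without their roles. The build, annotation and strand setting are not given in the sources used here, and the start and end of all 58735 genes equal those of GENCODE release 29 on GRCh38. Reads from overlapping genes on opposite strands may therefore be shared.

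Starting from the deposited counts, edgeR 4.0.16 (R 4.3.3) gave log2 fold changes by its quasi-likelihood test after TMM scaling and filterByExpr (at least 10 counts, total of at least 15), with 1 fit for each drug and the controls and 1 fit of all 4 groups for contrasts between drugs. The Benjamini-Hochberg adjustment covered all genes tested, and calls needed an adjusted p under 0.05. A stricter call also needed a log2 fold change above 1 or below -1. Correlations used log2 CPM with a prior count of 2. The 95% confidence intervals are not adjusted for the number of genes. The steps were tested on simulated data. Total counts of 14057282 to 18177109 set the precision, and 3 counts were taken as the limit of a count of 0.

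The genes named were the 7 members, 10 fixed genes of the IGF system, and for each member above a mean of 1 CPM the 3 genes with the highest r. Members of gene lists with the stricter call (at most 4 per list and drug by smallest p) were eligible, and only some of them are named. Other list members are named with their counts or as cell type markers. A gene of these lists that the rule covers is counted but not reported here. Members and lists were chosen with earlier results of these data known. Replicates with the same number did not deviate together (mean r of -0.0209 over 18 pairs of samples, from -0.184 to 0.103), so the numbers were not used as a block. The alternatives were DESeq2 1.42.0, limma-voom (limma 3.58.1), RLE factors, library size without factors, no filter or at least 10 counts in every sample, a block, other sets of samples in the fit, and leaving out each sample. The gene lists were recomputed with RLE factors, with library size only and without iohexol replicate 3, chosen after seeing the data. Tables and figures were made in Python 3.11.15 with pandas 2.3.3, numpy 2.4.6 and matplotlib 3.10.9.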

Additional observations from a re-analysis of the deposited data

How the results depend on the processing

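The counts of members called, in total, by direction and by the stricter call, were within 1.5 times the reported value in 403 of 408 recomputations. A move from 2 to 3 stays inside this rule, so for counts this small it can hide a changed member. The stricter count for cisplatin against control, reported as 2, was 3 with DESeq2, limma-voom, library size only and a replicate block. RLE factors, the other filters and the single fit of all groups left it at 2. Its leave-one-out fits covered 2 and 3, and so did those for vancomycin against control, also reported as 2. The members called with iohexol numbered 1, and 1 to 3 in the leave-one-out fits, 3 being the value without iohexol replicate 3. Without control replicate 1 the members called against control stayed at 1, 5 and 4 with iohexol, cisplatin and vancomycin. The members differing between iohexol and cisplatin by a log2 fold change past 1 numbered 1, and 0 with at least 10 counts in every sample, a filter that removes IGFBP5. Of 506 recomputed values of single members, 481 kept their direction and side of the threshold, 13 lost the call and 4 gained it. The 8 that turned direction all belonged to IGFBP5 where it was not called. With iohexol against control they were -0.15 and -0.06 in the leave-one-out fits, whose range was -0.15 to 0.40, and with vancomycin -0.17, with a range of -0.17 to 0.38. For iohexol against vancomycin the value was 0.17 with library size only, and 0.05, 0.07, 0.07 and 0.05 without iohexol replicates 1 and 3 and vancomycin replicates 2 and 3, with a range of -0.25 to 0.07. The cause was not tested.

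The samples share only a replicate number. When that number entered as a replicate block, the counts of members called against control stayed at 1, 5 and 4, and IGFBP3 between iohexol and cisplatin was no longer called (log2 difference 0.19, edgeR adjusted p = 0.0649). The block lowered the genes called with iohexol from 3283 to 2096, and leaving out each sample gave 1849 to 4544. With library size only, the share of higher calls moved from 53.4% to 67.5% with iohexol, from 48.9% to 68.1% with cisplatin, from 51.8% to 41.2% for iohexol against cisplatin, from 48.7% to 65.6% for iohexol against vancomycin and from 46.4% to 66.4% for cisplatin against vancomycin. The median over all genes moved to 0.23, -0.13, 0.22 and 0.30 in the last 4 of these comparisons. Depth limits IGFBP1, IGFBP2 and IGFBP5, whose counts were at most 33.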
